A study of Mus musculus with 32 samples.

Results

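The genes described here take lipoprotein lipase (LPL) from its folding to the uptake of the lipoproteins it has worked on. They are Lmf1 and Sel1l for maturation, Lpl itself, Gpihbp1 for anchoring, Pltp, Apoc1 and Apoe for the lipoprotein particle, and Vldlr and Lrp1 for receptor uptake. The 9 genes were chosen by symbol among the 50686 genes of the count table, and all 9 passed the filter on low counts, which left 15505 genes for testing. Interscapular brown adipose tissue (iBAT), the thermogenic fat pad between the shoulder blades, came from 32 non-fasted, chow-fed male C57BL/6J mice of 10 weeks with no other treatment or genetic change. They were housed at room temperature, which the study describes as mild cold. Tissue was taken from 4 mice at each of 8 Zeitgeber times (ZT), which run every 3 h from ZT0, the onset of the light (inactive) phase, to ZT21, with ZT12 as the onset of the dark (active) phase. Per the labels, lane 2 of the sequencer took the libraries of ZT0, ZT3 and ZT6, lane 3 took ZT9, ZT12 and ZT15, and lane 4 took ZT18 and ZT21. A step from ZT6 to ZT9, from ZT15 to ZT18 or from ZT21 to ZT0 is therefore also a change of lane, and at these 3 steps time of day and lane cannot be told apart.

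LPL is made by the adipocyte as an inactive chain. Lipase maturation factor 1 (LMF1), a membrane protein of the endoplasmic reticulum (ER), and SEL1L, the adaptor of an ER ubiquitin ligase, are both needed for it to fold and leave the ER. On the capillary, GPIHBP1 picks up secreted LPL and carries it to the lumen, where the enzyme hydrolyses the triglycerides of triglyceride-rich lipoproteins. Surface lipids shed during lipolysis are moved by phospholipid transfer protein (PLTP), and the remnants, marked by apolipoprotein (apo) E, are taken up by LRP1 and the VLDL receptor. ApoC1 is known as a brake on both lipolysis and receptor uptake. Brown fat clears large amounts of these particles to fuel heat production.

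Total counts per library ran from 16300770 to 18254659. Values are given in CPM, counts scaled to a common library total after TMM normalization, as mean ± SD over mice. All 8 brown adipocyte markers were detected, with a summed level of 3662 to 7523 CPM per library and Ucp1 as the most abundant (mean 2209 CPM). The 9 endothelial markers summed to 880 to 1343 CPM and the 9 macrophage markers to 61.8 to 356 CPM. The 9 skeletal muscle markers varied most, from 55.0 to 6035 CPM, and 5 hepatocyte markers were near 0 (0.459 to 1.57 CPM, Ttr with no count). In whole tissue, fewer cells of a type and less RNA per cell cannot be told apart.

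Per kilobase of annotated exon, Apoe and Lpl were the most abundant of the genes, at 395 ± 85.4 and 351 ± 84.8 CPM per kb (SD over 32 libraries), levels that did not differ beyond their spread. Apoc1 came next at 218 ± 39.6 CPM per kb. Gpihbp1 followed at 29.8 ± 3.53, Vldlr at 23.9 ± 3.27 and Pltp at 23.9 ± 4.07 CPM per kb, and these 3 overlapped in their spread. Lrp1 stood at 15.2 ± 4.43 and Sel1l at 10.8 ± 0.782 CPM per kb, neighbours whose spreads touched. Lmf1 was lowest at 3.06 ± 0.307 CPM per kb. The exon length is the union over all annotated transcripts and can exceed that of the transcript made here, by a different factor for each gene.

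**Figure D1:**
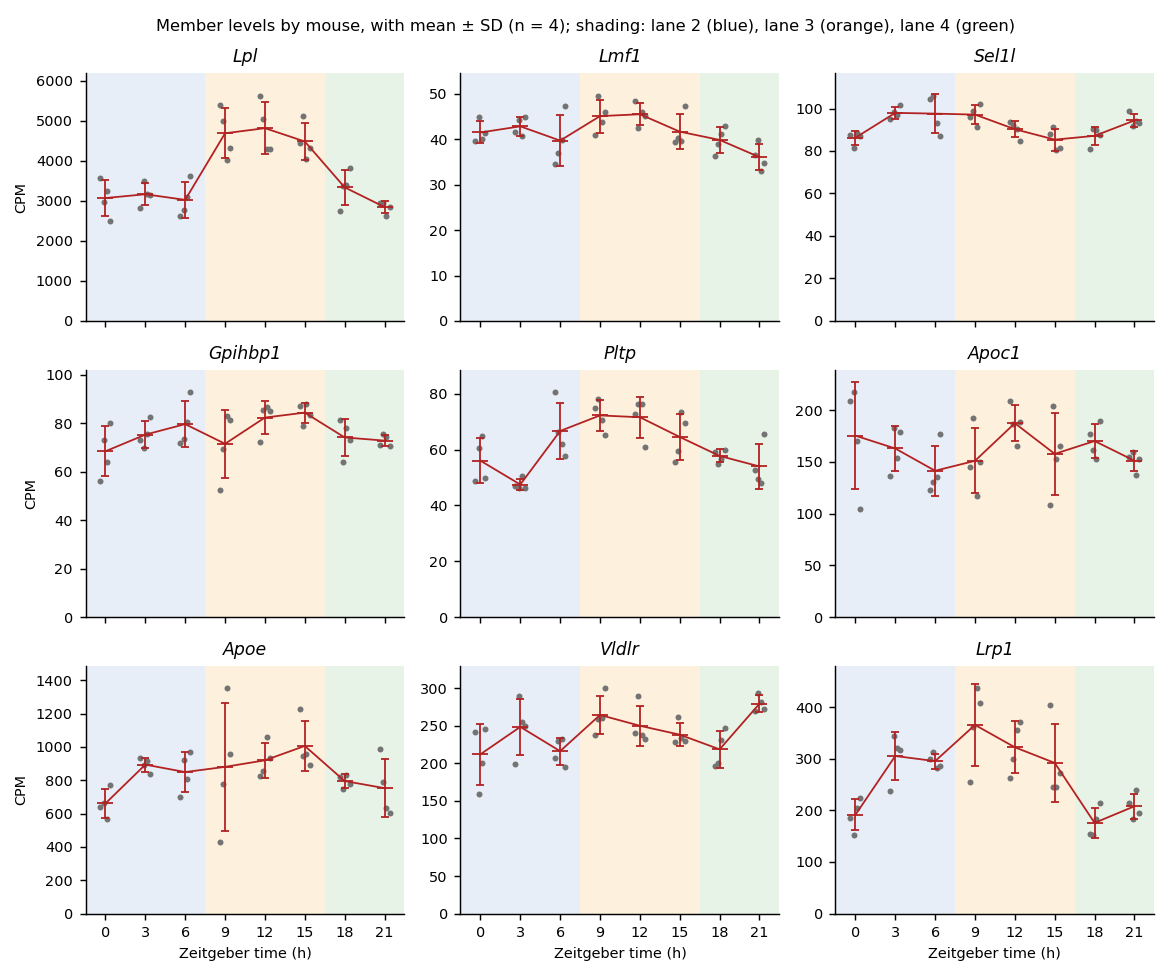
CPM of each gene (y axis, from 0) against Zeitgeber time in h (x axis), with 1 grey point per mouse and red mean ± SD over 4 mice. Shading marks lane 2 (blue), lane 3 (orange) and lane 4 (green); Lpl lies higher over the whole of lane 3, whereas Lrp1 and Pltp also differ between time points inside lane 2.

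Oscillation was assessed first by JTK, which compares the order of a gene's values with cosine shapes. It called 5 of the 9 genes at P under 0.05 (Lpl, Lmf1, Sel1l, Pltp and Lrp1), against 36.9% of all tested genes. With Benjamini-Hochberg (BH) adjustment it called 4 of 9, without Lmf1, against 27.5% of all genes. A 24 h cosine in edgeR gave the same 5 genes, against 36.1% of all genes, and a test for any difference between the 8 time points added Vldlr (6 of 9, against 39.8%). Single libraries bore on the weaker calls. The JTK call of Lmf1 was lost without ZT9 replicate 2 or 4 or ZT21 replicate 1, 3 or 4 (P up to 0.0866). Its difference between time points (adjusted p = 0.0321) was lost without any of these or ZT12 replicate 1 or 3 (adjusted p up to 0.0867), and with library size in place of TMM scaling (0.0701). That of Vldlr (adjusted p = 0.0398) was lost without any of 14 libraries (ZT0 replicate 3, ZT3 replicates 3 and 4, ZT6 replicates 1 and 4, ZT9 replicates 2 and 4, ZT15 replicate 3, ZT18 replicates 1 and 2 and all 4 of ZT21, adjusted p up to 0.0792). JTK called Apoe (exact P = 0.0723 with all mice, 0.0386 with 24 h templates alone) without any of 5 libraries (ZT6 replicate 1, ZT9 replicates 1 and 2, ZT12 replicate 1 and ZT21 replicate 1) and Gpihbp1 (P = 0.107) without any of 3 (ZT9 replicates 1 and 2 and ZT12 replicate 1). With no filter on low counts the cosines of Lmf1 and Sel1l missed the threshold (adjusted p = 0.0779 and 0.0560), as did the differences between time points of Lmf1, Sel1l and Vldlr (0.0859, 0.0856 and 0.0540). The median cosine amplitude of the 9 genes was 0.10 on the log2 scale, and that of all tested genes 0.14. With lane as a further term in the model the cosine passed for Sel1l and Lrp1, which is 2 of 9 against 17.2% of all genes. There Vldlr had an adjusted p of 0.0598, which passed in DESeq2 (0.0357) and without any of ZT0 replicate 2, ZT3 replicate 1, ZT9 replicate 1, ZT12 replicate 2 and ZT15 replicate 2 (as low as 0.0208). Each lane holds neighbouring time points, so the lane terms take up part of any 24 h cosine. The part is larger for a peak near ZT12, as in Lpl, than for one near ZT6 or ZT9.

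Lmf1 (ENSMUSG00000002279, GRCm38 chromosome 17, 25579085 to 25662826) had a cosine of low amplitude. The 4 mice had 48.3, 42.5, 46.0 and 45.1 CPM at ZT12, the time point with the highest mean, and 36.5, 39.8, 33.0 and 34.8 CPM at ZT21, the lowest. These groups did not overlap, and their means stood 1.26-fold apart. The cosine had an amplitude of 0.10 ± 0.03 (SE, log2) with a peak at ZT9.56 ± 1.21 h (edgeR adjusted p = 0.0376). This call was lost, with an adjusted p of up to 0.0786, when any of 10 libraries was left out (ZT6 replicate 4, ZT9 replicates 2 and 4, ZT12 replicates 1, 3 and 4, ZT18 replicate 1, and ZT21 replicates 1, 3 and 4). None of the 8 steps between neighbouring time points passed for Lmf1, and its cosine did not pass with lane in the model (adjusted p = 0.919).

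Sel1l (ENSMUSG00000020964, GRCm38 chromosome 12, 91806043 to 91849157) had a small rise at the start of the light phase. At ZT0 the mice had 87.6, 81.4, 88.7 and 87.3 CPM, and at ZT3 they had 94.9, 98.4, 96.9 and 102 CPM. Every mouse at ZT3 thus lay above every mouse at ZT0, both on lane 2. The step was 0.18 ± 0.06 on the log2 scale, or 1.14-fold (edgeR adjusted p = 0.0394). It lost its call, with an adjusted p of up to 0.119, without any of ZT0 replicates 1, 2 and 3 and ZT3 replicates 2, 3 and 4. The mean then stayed at 97.6 ± 9.21 CPM at ZT6 and 97.1 ± 4.50 CPM at ZT9 and was lowest, 85.4 ± 5.18 CPM, at ZT15. The fitted peak was at ZT5.46 ± 1.02 h with an amplitude of 0.08 ± 0.02 (edgeR adjusted p = 0.0188). It passed with lane in the model too (adjusted p = 0.00414), with values between 0.00152 and 0.0119 when each library was left out in turn.

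RefSeq promoter entries (GRCm38.p6, 250 bases before to 50 after the annotated start) were matched for 6 of the 9 genes, and none was listed for Lpl, Gpihbp1 and Apoc1. Both strands were searched for CACGTG (the E-box of clock factors), TTATGNAA (a D-box), AGGTCA (a core letter string of nuclear receptor sites) and CCAAT (the box bound by the factor NF-Y). None of the first 3 was found in any of the members' windows, while 7.15%, 3.38% and 16.3% of all 32851 promoters hold them. CCAAT was found for Sel1l, Pltp and the second listed start of Vldlr, and 37.4% of all promoters hold it. The windows of Sel1l and Pltp are shown because both hold CCAAT and both genes had a step past the threshold inside lane 2, whereas Lrp1, the other gene with such a step, has no CCAAT in its window. Each is written 5′ to 3′ on the strand of the gene, with CCAAT or its reverse complement ATTGG in capitals. The Sel1l window (minus strand of chr12:91849108-91849407) has 4 matches, whose first bases lie at -191, -119, -61 and -29 from the start, and that of Pltp (minus strand of chr2:164857659-164857958) has 1, at -182.
Sel1l: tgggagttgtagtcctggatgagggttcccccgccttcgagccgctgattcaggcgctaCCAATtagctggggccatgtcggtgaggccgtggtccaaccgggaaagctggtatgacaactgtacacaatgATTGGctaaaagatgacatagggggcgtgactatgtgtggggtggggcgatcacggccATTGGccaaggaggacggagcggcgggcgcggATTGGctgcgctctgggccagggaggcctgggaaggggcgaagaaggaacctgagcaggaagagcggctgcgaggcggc
Pltp: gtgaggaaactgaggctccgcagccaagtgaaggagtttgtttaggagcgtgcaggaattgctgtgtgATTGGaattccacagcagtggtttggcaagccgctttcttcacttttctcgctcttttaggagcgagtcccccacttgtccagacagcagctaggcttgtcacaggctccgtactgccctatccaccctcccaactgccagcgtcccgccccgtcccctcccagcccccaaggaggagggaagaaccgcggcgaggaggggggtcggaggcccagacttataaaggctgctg
These matches describe letters in a window and not binding.

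Lpl (ENSMUSG00000015568, GRCm38 chromosome 8, 68880491 to 68907448) was high at ZT9, ZT12 and ZT15. At ZT6 the mice had 2615, 2779, 3090 and 3622 CPM, and at ZT9 they had 5408, 4998, 4023 and 4334 CPM. The groups did not overlap, and the step of 0.63 ± 0.12 on the log2 scale (1.55-fold, edgeR adjusted p = 0.00697) fell on the change from lane 2 to lane 3. At ZT15 the mice had 4445, 5135, 4054 and 4311 CPM, and at ZT18 they had 2755, 3379, 3396 and 3831 CPM. These groups did not overlap either, and this step, on the change from lane 3 to lane 4, was -0.43 ± 0.12 (edgeR adjusted p = 0.0819, and 0.0247 by DESeq2). Inside the lanes its steps were smaller on average: the mean absolute log2 step was 0.10 over the 5 steps within a lane and 0.39 over the 3 lane changes. The order did not hold for each step, since the fall from ZT18 to ZT21 inside lane 4 was -0.23 ± 0.12 (adjusted p = 0.380) and the lane change from ZT21 to ZT0 was 0.11 ± 0.12 (adjusted p = 0.660). Over all tested genes the medians of these means were 0.17 and 0.17. The cosine of Lpl, with its peak at ZT12.0 ± 0.523 h and an amplitude of 0.38 ± 0.05, had an adjusted p of 3.54e-06 without lane and of 0.748 beside lane. This peak lies in the middle of lane 3, and the lane terms take up most of such a cosine. The value beside lane therefore cannot decide whether Lpl had a 24 h rhythm.

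Gpihbp1 (ENSMUSG00000022579, GRCm38 chromosome 15, 75596628 to 75599481), the capillary anchor of LPL, was related to the endothelial markers of the sample, and not past the threshold to the time of day. Its time-point means lay between 68.5 ± 10.4 CPM at ZT0 and 84.5 ± 4.12 CPM at ZT15, and no test across time or step passed (cosine, edgeR adjusted p = 0.177). The mice at ZT9 had 52.6, 69.2, 83.0 and 81.5 CPM, and replicate 1 there was the lowest of all 32 libraries. Without that library the cosine passed (adjusted p = 0.0236). Among mice of the same time point, Gpihbp1 was higher where the summed endothelial markers were higher (r of deviations from the time-point means 0.857, n = 32, permutation of mice within time points, p = 1e-05, the smallest it can give, adjusted p = 0.00027 over 27 relations, Spearman's rho 0.877). The relation was 0.819 without the 2 libraries farthest out in the marker sum, and 0.886, 0.840 and 0.932 within lanes 2, 3 and 4.

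The endothelial sum itself had time-point means from 1214 ± 53.6 CPM at ZT3 to 929 ± 41.8 CPM at ZT12. Of its 9 markers 5 differed between time points, against 39.8% of all tested genes, and 3 had a cosine, against 36.1%. Gpihbp1 amounted to 5.79% ± 0.441 of that sum at ZT0 and to 6.21% ± 0.329 at ZT3. At ZT12 it amounted to 8.87% ± 0.622, with all 4 mice (8.03% to 9.44%) above those of ZT0 (5.26% to 6.22%). This share is given as a description and was not tested.

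Pltp (ENSMUSG00000017754, GRCm38 chromosome 2, 164839518 to 164857711) moved inside lane 2. At ZT3 the mice had 47.0, 46.1, 50.6 and 46.2 CPM, and at ZT6 they had 80.6, 66.2, 62.0 and 57.9 CPM. All mice of ZT6 lay above all of ZT3, with a step of 0.49 ± 0.11 on the log2 scale or 1.40-fold (edgeR adjusted p = 0.0176). Replicate 1 of ZT6 was the highest, and without that library the step was 0.38 (adjusted p = 0.0823). The level stayed high at ZT9 (72.2 ± 5.68 CPM) and ZT12 (71.6 ± 7.30 CPM) and was 54.0 ± 7.97 CPM at ZT21. Its cosine peaked at ZT11.2 ± 0.685 h with an amplitude of 0.25 ± 0.04 (edgeR adjusted p = 0.000282), and missed the threshold with lane in the model (adjusted p = 0.110), which it passed without ZT0 replicate 3 (0.0384) and with library size as the scaling (0.0404). Exons of Pltp share 495 bases, 19.3% of its exonic length, with Ctsa on the opposite strand, and the strand setting of the counting is not given in the sources used here.

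Apoc1 (ENSMUSG00000040564, GRCm38 chromosome 7, 19689481 to 19692660) had no test across time past the threshold. Its values spread widely among mice of one time point: at ZT0 they were 209, 217, 170 and 105 CPM, and at ZT15 they were 109, 204, 153 and 165 CPM. The lowest and the highest of all 32 libraries were both from ZT0, and 21.1% of the variance of its log2 CPM lay between time points, as against 79.1% for Lpl. The fitted amplitude was 0.06 ± 0.07.

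Apoe (ENSMUSG00000002985, GRCm38 chromosome 7, 19696109 to 19699188), the neighbour of Apoc1, was lowest at ZT0. The mice at ZT0 had 641, 661, 568 and 773 CPM, and those at ZT3, on the same lane, had 935, 890, 914 and 837 CPM. The groups did not overlap, yet the step of 0.44 ± 0.20 (1.35-fold) had an edgeR adjusted p of 0.141. A test over the time points of lane 2 alone passed (adjusted p = 0.0449), and lost its call without any of 9 of these 12 libraries (adjusted p up to 0.133, ZT0 replicate 4, ZT6 replicate 1 and ZT6 replicate 4 excepted). At ZT9 the mice had 430, 780, 1352 and 960 CPM, so that the lowest and the highest of all 32 libraries came from this time point. Replicate 1 of ZT9 was also the lowest library in Gpihbp1 and in the endothelial sum (880 CPM), and replicate 3 the highest in the macrophage sum (356 CPM). Without ZT9 replicate 1 the cosine of Apoe passed (adjusted p 0.00668 in place of 0.0955), as did the step from ZT0 to ZT3 (adjusted p 0.04996) and the contrast of ZT12 against ZT0 (0.0294 in place of 0.106). That contrast also passed when fitted on its 8 libraries alone (0.0380).

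Vldlr (ENSMUSG00000024924, GRCm38 chromosome 19, 27216484 to 27254231) was highest at ZT21 and had no 24 h cosine (edgeR adjusted p = 0.865). At ZT18 the mice had 196, 200, 232 and 247 CPM, and at ZT21 they had 270, 294, 282 and 272 CPM. The groups did not overlap. Both are on lane 4, and the test on that lane alone passed (adjusted p = 0.0425), while the same step in the model of all 8 time points, 0.35 ± 0.12 or 1.28-fold, did not (adjusted p = 0.109). The lane 4 call was lost without any of 7 of the 8 libraries (adjusted p up to 0.104, ZT18 replicate 4 excepted). At ZT0 the mice had 242, 159, 201 and 246 CPM, again all below those of ZT21. This fall, on the change from lane 4 to lane 2, was -0.40 ± 0.12 (0.759-fold, adjusted p = 0.0323), and it lost its call without ZT0 replicates 2 or 3 or ZT21 replicates 1, 2 or 3 (adjusted p up to 0.159).

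Lrp1 (ENSMUSG00000040249, GRCm38 chromosome 10, 127538161 to 127621148) had the largest amplitude of the 9 genes, 0.47 ± 0.07 on the log2 scale (1.91-fold from trough to peak), with its peak at ZT8.81 ± 0.563 h (edgeR adjusted p = 1.83e-05). The amplitude of Lpl came next at 0.38 ± 0.05, and the SE ranges of these genes overlapped. At ZT0 the mice had 185, 153, 204 and 223 CPM, and at ZT3 they had 238, 344, 321 and 318 CPM. All mice of ZT3 lay above all of ZT0, both on lane 2. The step was 0.67 ± 0.17, or 1.60-fold (adjusted p = 0.00897), and it kept its call with each library left out in turn (adjusted p up to 0.0432). The level was highest at ZT9, with 255, 362, 436 and 408 CPM. It fell from 404, 245, 245 and 273 CPM at ZT15 to 154, 151, 183 and 215 CPM at ZT18. These groups did not overlap, and the step of -0.73 ± 0.17 (0.602-fold, adjusted p = 0.0275) lay on the change from lane 3 to lane 4. It lost its call without ZT15 replicate 1 or ZT18 replicates 1, 2 or 3 (adjusted p up to 0.122). Beside lane the cosine of Lrp1 still passed (adjusted p = 0.0221, at most 0.0487 with each library left out, 0.0555 with library size in place of TMM scaling).

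Macrophages are among the cells known to make LRP1 and apoE, and their summed markers had a higher mean where Lrp1 was higher at the step from ZT0 to ZT3. The sum was 81.5 ± 17.1 CPM at ZT0 and 143 ± 31.4 CPM at ZT3, with ranges that overlapped (69.1 to 107 and 104 to 178 CPM). At the fall of Lrp1 from ZT15 to ZT18 the sum was 100.4 ± 36.5 and 105 ± 19.6 CPM. Of the 9 macrophage markers 6 had a cosine, against 36.1% of all genes, and 3 differed between time points, against 39.8%. Among mice of one time point Lrp1 and this sum had r = 0.544 (permutation p = 0.0185, adjusted p = 0.110 over 27 relations, and r = 0.418 without the 2 libraries farthest out in the sum), and Spearman's rho of 0.541 passed (adjusted p = 0.0347). Their part in the steps was not tested.

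**Figure D2:**
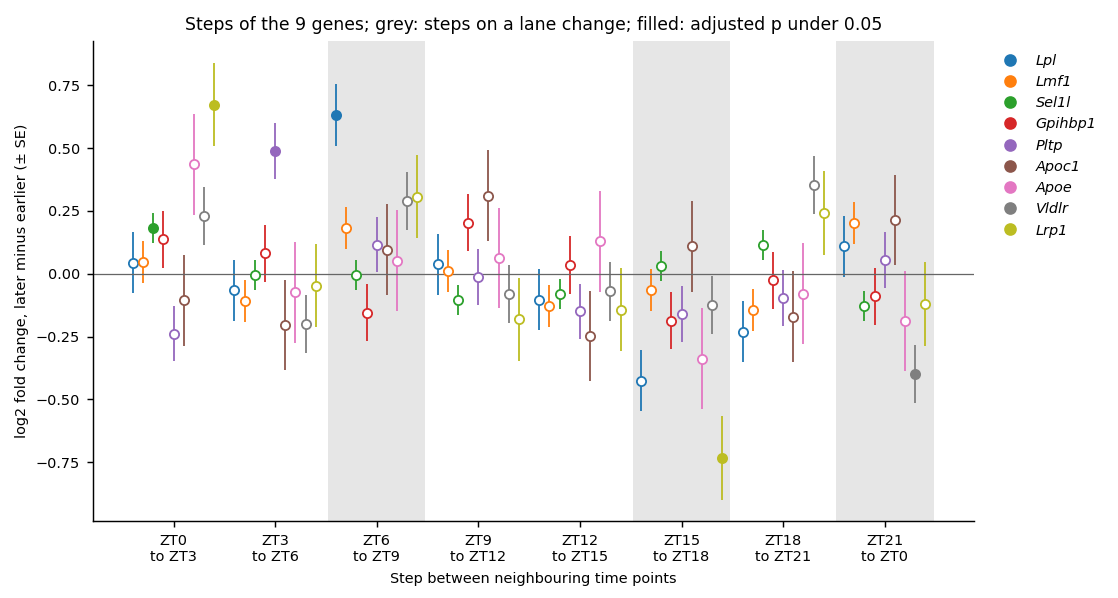
Log2 fold change (y axis, later minus earlier time point, ± SE) of each of the 9 genes (colours) at each of the 8 steps (x axis), with grey bands for steps on a lane change and filled points for an edgeR adjusted p under 0.05. Of the filled points 3 lie on grey bands (Lpl, Lrp1 and Vldlr) and 3 inside a lane (Lrp1, Sel1l and Pltp).

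Of the 72 steps of these genes, 6 passed the threshold, 3 of 27 on lane changes and 3 of 45 within a lane. From ZT0 to ZT3 the genes called were Lrp1 and Sel1l (2 of 9, against 13.8% of all tested genes). From ZT3 to ZT6 it was Pltp (1 of 9, against 2.08%). The lane changes had 1 call each, Lpl from ZT6 to ZT9 (against 1.95% of all genes), Lrp1 from ZT15 to ZT18 (1.17%) and Vldlr from ZT21 to ZT0 (7.72%). No gene of the set passed from ZT9 to ZT12 (0.0% of all genes in edgeR, 24 genes in DESeq2), from ZT12 to ZT15 (3.04%) or from ZT18 to ZT21 (2.06%). At unadjusted p under 0.05 these 3 steps had 0, 0 and 1 of the 9 genes, against 6.75%, 16.9% and 15.0% of all tested genes, and DESeq2 called none of them. Fitted on its own 8 libraries each, the step passed for 3 cases, all inside a lane: Lrp1 and Apoe from ZT0 to ZT3 (Apoe adjusted p = 0.0380) and Vldlr from ZT18 to ZT21 (0.0425). The 3 steps on lane changes then had adjusted p from 0.122 to 0.165, Sel1l had 0.110 and Pltp 0.0826. With no filter on low counts Sel1l (0.162) and Vldlr (0.0512) missed the threshold, and with library size as the scaling the fall of Lrp1 did (0.0520). The mean absolute step was larger on lane changes than within lanes for 6 of the 9 genes and for 50.5% of all tested genes.

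Within single lanes, where the lane is constant, 3 of the 9 genes differed between the time points of lane 2 (Pltp, adjusted p = 0.0369, Apoe and Lrp1, adjusted p = 0.0105), against 12.7% of all genes. The call of Pltp was lost without any of 9 of the 12 libraries (adjusted p up to 0.0752). None did so in lane 3, against 1.75% of all genes (at unadjusted p under 0.05 in edgeR, 1 of 9 against 15.6%), and Vldlr alone did so in lane 4 (1 of 9, against 4.06%). With library size as the scaling Apoe (0.0648) and Vldlr (0.0744) missed the threshold, and with no filter Apoe did (0.0663).

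ZT12 was compared with ZT0, dark onset with light onset, the contrast the study used for its later experiments. Those experiments used other, fasted mice, and the study reported more LPL protein at ZT12 than at ZT0 in the wild types. Here the contrast also compares lane 3 with lane 2. Of the 9 genes 3 were higher at ZT12 and none lower, against 7.71% of all genes called higher and 8.15% called lower. Lpl had 5629, 5047, 4299 and 4299 CPM at ZT12 and 3565, 2986, 3240 and 2501 CPM at ZT0, without overlap, a difference of 0.65 ± 0.12 (1.57-fold, adjusted p = 0.000581). Lrp1 had 262, 300, 356 and 370 CPM at ZT12, all above ZT0, a difference of 0.75 ± 0.17 (1.68-fold, adjusted p = 0.00270). Pltp was 1.28-fold higher (adjusted p = 0.0294, 0.0530 with no filter and 0.0927 fitted on the 8 libraries alone) with overlapping mice, and lost its call without any of 5 of the 8 libraries (adjusted p up to 0.110, ZT0 replicates 2 and 3 and ZT12 replicate 4 excepted). Of the folding partners of LPL, Lmf1 differed by 0.13 (95% interval -0.03 to 0.30) and Sel1l by 0.07 (-0.05 to 0.18) on the log2 scale, neither past the threshold. Gpihbp1 differed by 0.27 (0.04 to 0.49, adjusted p = 0.112), and passed without ZT0 replicate 4 (0.0431).

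**Figure D3:**
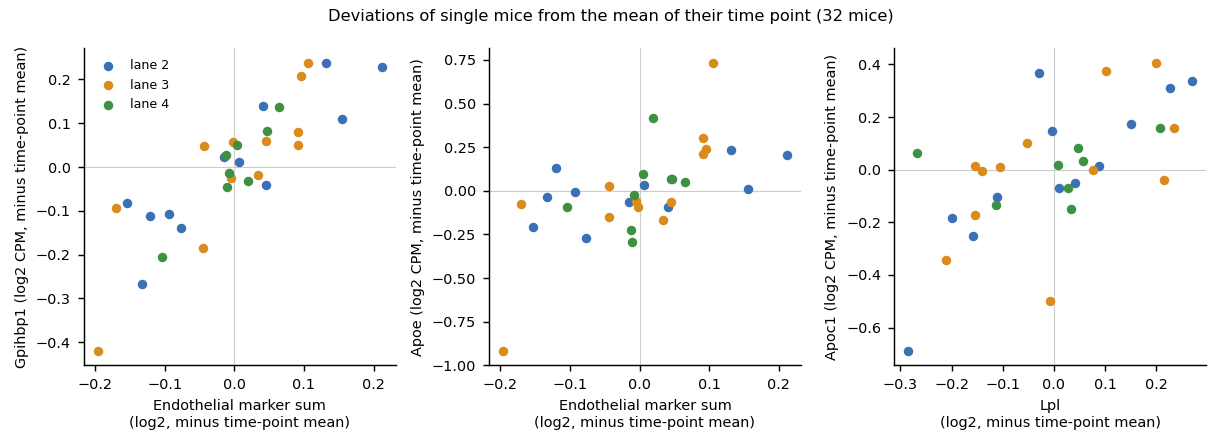
Each point is 1 of 32 mice, coloured by lane, placed by its deviation from the mean of its time point on the log2 scale. Gpihbp1 (left) and Apoe (middle) are plotted against the endothelial marker sum and Apoc1 (right) against Lpl; the point lowest in both of the first plots is replicate 1 of ZT9.

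Among mice of the same time point, where neither hour nor lane differs, 2 of the 36 pairs of these genes were related past the threshold (9 with library size as the scaling). Lpl and Apoc1 went together (r = 0.635, permutation p = 0.00098, adjusted p = 0.0176, rho = 0.633, adjusted p = 0.0281). Their r was 0.624 without the 2 libraries farthest out in Lpl and 0.822, 0.533 and 0.280 within lanes 2, 3 and 4, and the call was lost without ZT0 replicate 4 (adjusted p = 0.0972). Gpihbp1 and Apoe went together (r = 0.684, permutation p = 0.00082, adjusted p = 0.0176), but the rank correlation did not pass (rho = 0.546, adjusted p = 0.0673). Their r was 0.566 without the 2 libraries farthest out in Gpihbp1 and 0.534, 0.902 and 0.196 within lanes 2, 3 and 4. The call was lost without ZT0 replicate 4 or ZT9 replicate 1, 2 or 4 (adjusted p up to 0.122). Lpl and Gpihbp1, the enzyme and its anchor, had r = -0.484 (adjusted p = 0.152).

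Of the 27 relations with marker sums, the one of Apoe with the endothelial sum passed besides that of Gpihbp1 (r = 0.604, permutation p = 0.00037, adjusted p = 0.00500, rho = 0.637, adjusted p = 0.00311). With library size as the scaling 6 of the 27 passed in place of 2. The relation of Apoe was 0.501 without the 2 libraries farthest out and 0.589, 0.787 and 0.394 within lanes 2, 3 and 4, and just missed the threshold without ZT9 replicate 1 (adjusted p = 0.0506). With the macrophage sum Apoe had r = 0.442 (adjusted p = 0.454) and Apoc1 had r = -0.528 (adjusted p = 0.0762). None of the 9 relations with the skeletal muscle sum passed, the nearest being that of Sel1l (r = 0.378, adjusted p = 0.170).

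The genes whose log2 CPM followed each of these genes most closely over the 32 libraries were listed from 13440 others with a mean of at least 1 CPM, as a description that holds time, lane and cell content together. Lpl went with Cidec, a lipid droplet protein (r = 0.937, and 0.773 for deviations from time-point means), Atp6v1e1 (0.884 and 0.607) and Agpat1 (0.882 and 0.624), an enzyme of glycerolipid synthesis. Gpihbp1 went with Aqp1, a water channel of capillaries (0.874 and 0.863), Sh2d3c (0.839 and 0.883) and N4bp3 (0.820 and 0.850). Lrp1 went with Pnpla7 (0.905 and 0.736), Tns2 (0.882 and 0.681) and Ppm1k (0.882 and 0.653).

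Sel1l went with Lrp6, a Wnt coreceptor (0.846 and 0.704), and with the nuclear receptor coactivator gene Ncoa2 (0.835 and 0.716) and the orphan receptor gene Nr2c2 (0.808 and 0.613). Vldlr went with Pde3b, which breaks down cyclic AMP in adipocytes (0.733 and 0.771), Trim24 (0.699 and 0.431) and Ulk2 (0.671 and 0.592). Lmf1 went with the kinase gene Akt1 (0.719 and 0.590), Yif1a (0.717 and 0.561) and the lipoprotein receptor gene Scarb1 (0.715 and 0.466). Apoe went with Pck2 (0.839 and 0.832), Ivns1abp (0.839 and 0.783) and Smtn (0.832 and 0.798). Apoc1 went with Zdhhc4 (0.819 for deviations), the lysosomal protease gene Ctsz (0.799 and 0.846) and Cib2 (0.794 and 0.819). The genes closest to Pltp were Lima1 (0.777), B430219N15Rik (0.770) and Coq10b (0.763), with lower values for deviations (0.310, 0.430 and 0.484).

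**Figure D4:**
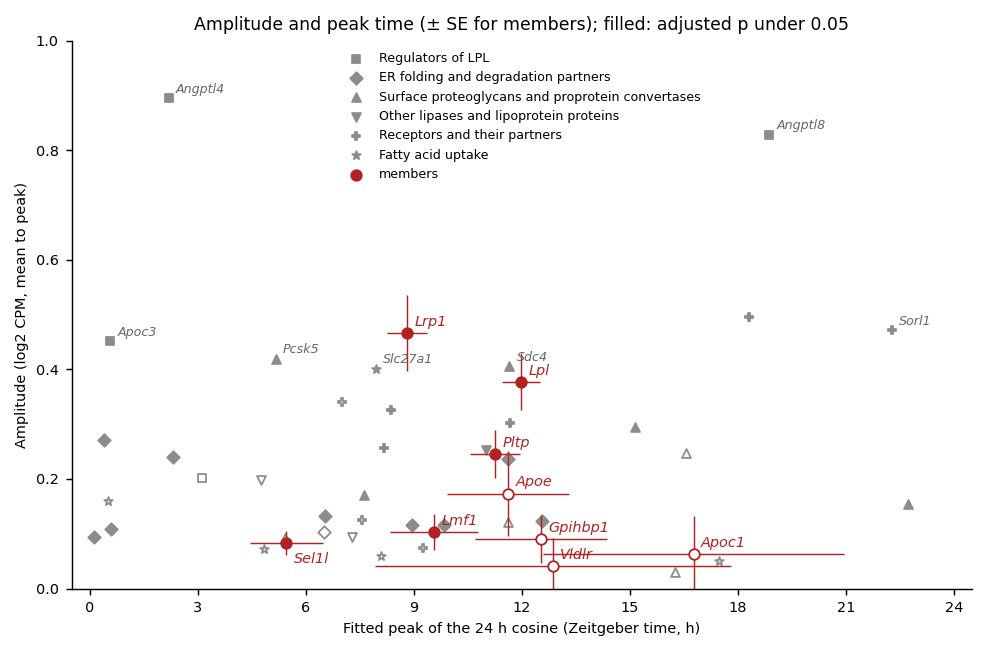
Amplitude of the 24 h cosine (y axis, log2 CPM from mean to peak) against its fitted peak (x axis, Zeitgeber time in h) for the 9 genes (red, ± SE) and the tested genes of the wider pathway (grey, shape by role), filled where the edgeR adjusted p is under 0.05. Lpl, Pltp, Lmf1 and Lrp1 peak between ZT8.81 and ZT12.0, Sel1l at ZT5.46, and the inhibitors Angptl4 and Angptl8 lie far above them in amplitude.

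Around these genes, a list of 47 further genes of the pathway was read in the same way. Of them 39 were tested, of which 24 had a cosine past the threshold (against 36.1% of all genes), 8 had one beside lane (17.2%) and 9 differed within at least 1 lane (15.9%). At ZT12, 8 were higher and 5 lower than at ZT0, in the test whose shares over all genes are given above. Their median amplitude was 0.20 on the log2 scale. The counts by role below are to be read beside the same shares of all genes.

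Among secreted regulators of LPL, 3 of 4 tested genes had a cosine. Angptl4, an inhibitor of LPL, ranged from 104 ± 71.7 CPM at ZT15 to 513 ± 32.9 CPM at ZT3 (adjusted p = 0.000979), and 0.123 beside lane. Angptl8, which encodes another secreted regulator of LPL, ranged from 19.5 ± 4.00 CPM at ZT6 to 84.4 ± 55.9 CPM at ZT15 (adjusted p = 0.000694) and passed beside lane (0.000257) and within lane 2 (0.0117). Apoc3, a circulating inhibitor made mainly by liver, passed at only 0.903 CPM (adjusted p = 0.0429). Apoc2, the activator of LPL, and Apoa5 are listed with 0 counts. Apoc2 shares exons with an annotated read-through gene, also listed at 0, and reads that fit more than 1 gene may not be counted.

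Of the 10 ER folding and degradation partners, 9 had a cosine and 1 kept it beside lane, against 36.1% and 17.2% of all genes. Edem1, which sends misfolded glycoproteins to degradation, was highest at ZT3 (85.9 ± 3.47 CPM) and lowest at ZT15 (56.9 ± 3.17 CPM), with an adjusted p of 6.18e-07 and of 0.0115 beside lane. Os9 (67.7 ± 1.0 CPM) and Herpud1 (99.7 ± 13.9 CPM), partners of the same ligase as SEL1L, and the lectin gene Erlec1 (38.5 ± 1.62 CPM) were instead highest at ZT12. At ZT0 Os9 had 54.8 ± 1.59 CPM and Herpud1 61.8 ± 4.24 CPM, a difference from ZT12 of 0.31 (adjusted p = 0.000236) and 0.69 (0.000532) on the log2 scale. Of the 10, 3 were higher and 4 lower at ZT12 than at ZT0, against 7.71% and 8.15% of all genes. Other partners of that ligase, named here after their values were seen, were among those lower at ZT12, with a log2 difference of -0.67 for Derl1 (adjusted p = 0.0231) and of -0.23 for Derl2 (0.0384). Syvn1, which encodes the ligase itself, differed by -0.01 (0.963).

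Of the 9 surface proteoglycans and proprotein convertases, 5 had a cosine and 2 kept it beside lane. Sdc4, a heparan sulfate proteoglycan, went from 21.2 ± 2.12 CPM at ZT0 to 66.2 ± 5.38 CPM at ZT12 (log2 1.64, adjusted p = 3.71e-05). Hspg2, which encodes perlecan, had 338 ± 53.4 CPM at ZT0 and 457 ± 58.6 CPM at ZT6 (cosine beside lane, adjusted p = 0.0136). Pcsk6 was highest at ZT18 (84.3 ± 2.89 CPM, cosine adjusted p = 5.60e-06) and Pcsk5 at ZT3 (16.0 ± 4.25 CPM, adjusted p = 0.00842, and 0.0307 beside lane).

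Receptors and their partners had 5 of 8 tested genes with a cosine and 3 beside lane. The sorting receptor gene Sort1 peaked at ZT8.17 ± 0.547 h (0.000376 beside lane), and Mylip, a ligase that sends lipoprotein receptors such as VLDLR to degradation, was highest at ZT12 (60.6 ± 8.75 CPM, cosine adjusted p = 9.45e-05, 0.304 beside lane).

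Among 3 tested genes for other lipases and lipoprotein proteins, only Abca1, a cholesterol exporter, had a cosine (205 ± 46.3 CPM at ZT12, adjusted p = 0.00711), and the endothelial lipase gene Lipg differed within lane 4 (0.0461). Of 5 fatty acid uptake genes, only the transporter gene Slc27a1 had one, which fell from 283 ± 67.5 CPM at ZT9 to 143 ± 5.00 CPM at ZT18 (adjusted p = 6.72e-07, 0.000577 beside lane). Fabp5 differed within lane 2 (adjusted p = 0.0487). Cd36, the fatty acid translocase, had an amplitude of 0.06 ± 0.02 (adjusted p = 0.164).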

How the data were processed

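RNA-seq was performed on iBAT of 32 mice (8 time points, 4 mice each, 1 stranded paired-end library per mouse). The deposited values are raw read counts per gene. Per the study's methods and processing notes, the authors mapped reads to mm10 with GSNAP and counted them per Ensembl gene with HTSeq-count (0.6.1), and no normalization was applied to the deposited counts. Coordinates are those of GENCODE vM21 (GRCm38), another release than the one counted with, and 50376 of 50686 identifiers had a symbol.

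Counts were filtered with filterByExpr (time point as group), scaled with TMM and tested with edgeR's quasi-likelihood test (4.0.16, R 4.3.3), with BH adjustment over all 15505 tested genes and a threshold of 0.05. Models held the 8 time points, a 24 h cosine, the cosine with lane, or the time points of 1 lane. JTK was an own implementation with templates of 21 and 24 h and an exact null distribution, run on CPM. Its P was multiplied by the number of templates. Amplitudes and peaks are least-squares fits on log2 CPM (prior count 2), with SE over libraries. Relations among mice used deviations from time-point means, permuted within time points 100000 times, two-sided. The scripts were tested on simulated data. Alternatives were DESeq2 (1.42.0) size factors and tests, library size, no filter, removal of mitochondrial genes, a replicate block, fits of 8 libraries alone, and leaving out each library (20000 permutations for relations). At a median of 17418661 counts, intervals cover counting error and spread between mice only. The counts of all 48 replicate pairs differed by more than counting noise (chi-square per gene of at least 7.37).

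The genes and lists were chosen with earlier results of these data known. Genes named are the 9 members, up to 4 genes per role of the pathway list past the cosine or within-lane threshold by smallest p with those the study named, and the 3 genes most like each member by r. No columns were without a sample (0). Single values of some genes of the pathway list are not reported here.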

Additional observations from a re-analysis of the deposited data

Results flagged for a closer look

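In each gene and time point, the highest or lowest of the 4 mice was compared with the other 3 by the gap to its neighbour over the whole range. Of 72 such groups 4 had a mouse that stood apart, and chance alone marks about 1 in 20. Lmf1 had 47.4 CPM in replicate 4 of ZT15, and 39.4 to 40.2 CPM in the other mice. Gpihbp1 had 72.3 CPM in replicate 1 of ZT12, and 85.0 to 86.9 CPM in the others. Vldlr had 290 CPM in replicate 2 of ZT12 (232 to 241 CPM in the others) and 261 CPM in replicate 2 of ZT15 (229 to 234 CPM).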

How the results depend on the processing

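Counts of genes past the threshold moved by over 1.5 times under few alternatives, and the cause was not tested. Without a filter on low counts, 3 genes had a cosine (5 with it) and 3 differed between time points (6 with it). Fits of the 8 libraries of each step alone gave 3 steps in place of 6. Members differing within a lane numbered 2 in place of 4 with library size as the scaling. Relations among members numbered 9 in place of 2 with library size and 1 by Spearman's rho, and relations with marker sums 6 in place of 2 with library size. With each library left out in turn, the counts ran from 4 to 7 for JTK, the cosine, the time points and the steps alike, from 2 to 4 for ZT12 against ZT0 and for single lanes, and from 2 to 3 for the cosine beside lane. They ran from 0 to 3 for relations among members, from 2 to 3 for those with marker sums and from 21 to 27 for the pathway list (an alternative chosen after seeing the data).

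Single calls changed in 31 of 440 other results, 24 lost and 7 gained, and none of these reversed in direction. Replicate numbers did not pair the mice (mean correlation of deviations -0.039 over 112 pairs of the same number and 0.014 over 336 others, and 8 of 32 libraries were most like one of their own number). With a replicate block, members differing within a lane numbered 1 in place of 4, the calls lost being Pltp and Apoe in lane 2 (adjusted p = 0.0589 and 0.0557) and Vldlr in lane 4 (0.114). Relations among members numbered 1 in place of 2, the pair lost being Lpl with Apoc1 (r = 0.612, adjusted p = 0.0819), and Vldlr no longer differed between time points (adjusted p = 0.0517). The block changed no other count of members by over 1.5 times.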
